A study of Mus musculus and Rattus norvegicus with 12 samples.

Results

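The genes described are 40 genes of the endoplasmic reticulum (ER) and the early secretory pathway: chaperones and folding enzymes, helpers of these chaperones, genes of ER-associated degradation, stress sensors and their transcription factors, subunits of the translocation channel, and coat and retrieval proteins of ER-to-Golgi transport. They were taken by gene symbol and no measured value was a criterion, but the list was chosen with earlier results of these data known. All 40 were present among the 24411 genes of the mouse tables, and 39 among the 17315 genes of the rat tables. Derl2 had no row under that symbol in the rat tables used here, and mouse Ero1lb was matched to rat Ero1b.

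RNA was sequenced from 12 independently derived cell lines, each collected after 2 days in its own culture condition. The mouse lines were all of the ICR strain. The 3 pXEN lines were pXEN2 (male), pXEN4 and pXEN6 (female), at passages 17 to 21. Their titles and cell type labels say pXEN, while the names of their count tables say mouse XENP, and the labels were followed. The 3 XEN lines, which are stem cell lines of the extraembryonic endoderm, were XEN1 (female, passages 9 and 10), XEN2 and XEN5 (male, passages 19 to 21), grown on mouse embryo fibroblasts in serum. The 2 embryonic stem (ES) lines, ES2 (male) and ES3 (female), at passages 14 to 16, are pluripotent and were grown with serum, the cytokine LIF and 2 kinase inhibitors that keep the naive state. The 4 rat XENP lines were CX1 (male, passages 38 and 40) and MAX8 (female, passages 11 and 12) from WKY rats, and MAX2 (female, passages 16 and 17) and MAX3 (male, passages 10 and 11) from F344 rats. They were cultured like the pXEN lines. No gene was altered and no agent was tested in any group. Cell type and culture differed together in each mouse comparison, so they cannot be told apart, and in bulk RNA fewer cells of a type and less RNA per cell cannot be told apart either.

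Proteins bound for secretion enter the ER through the Sec61 channel, fold with the help of lectin and heat-shock-type chaperones and disulfide isomerases, and leave in COPII-coated vesicles, while KDEL receptors return escaped chaperones and misfolded proteins are sent to the cytosol for degradation. When unfolded proteins accumulate, the sensors encoded by Ern1, Atf6 and Eif2ak3 start the unfolded protein response, in which cleaved ATF6 and spliced XBP1 bind short elements in the promoters of chaperone genes. Parietal endoderm, a derivative of the lineage that XEN lines represent, is known for secreting a thick basement membrane. Counts per gene hold the RNA of these genes, not the splicing of Xbp1 or the cleavage of ATF6.

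The promoter elements of this response are shown first, because several members carry them. Promoters were taken from the RefSeq table for GRCm38.p6, from 250 bases before to 50 bases after each transcript start, and 34 of the 40 members matched (Atf6, Derl1, Hyou1, Kdelr2, Manf and Sec61a1 did not). Both strands were searched for the ER stress element ERSE (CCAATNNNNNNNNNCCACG), for ERSE-II (ATTGGNCCACG) and for the core of the unfolded protein response element, UPRE (TGACGTGG), whose last letters are the reverse complement of an ERSE end. Hspa5 and Dnajc3 are shown as ERSE carriers that were higher in both endoderm groups than in ES, Canx and Derl3 as ERSE carriers that did not pass the test, Herpud1 as a carrier of ERSE-II that differed between XEN and pXEN, and Kdelr3 and Sec24d as carriers of the UPRE core with large fold changes. Each stretch of 60 bases is written 5′ to 3′ on the gene's strand, and capitals mark the fixed letters of the element.
Hspa5, chr2:34772004-34772063, plus strand: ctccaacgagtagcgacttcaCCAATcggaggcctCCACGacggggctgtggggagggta
Dnajc3, chr14:118937806-118937865, plus strand: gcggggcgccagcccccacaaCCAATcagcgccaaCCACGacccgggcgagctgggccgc
Canx, chr11:50325780-50325839, minus strand: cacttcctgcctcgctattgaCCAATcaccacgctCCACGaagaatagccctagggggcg
Derl3, chr10:75893221-75893280, plus strand: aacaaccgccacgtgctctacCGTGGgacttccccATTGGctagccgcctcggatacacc
Herpud1, chr8:94386352-94386411, plus strand: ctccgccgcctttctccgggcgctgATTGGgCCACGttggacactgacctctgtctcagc
Kdelr3, chr15:79516348-79516407, plus strand: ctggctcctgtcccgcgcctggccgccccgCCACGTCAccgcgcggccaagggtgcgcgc
Sec24d, chr3:123267436-123267495, plus strand: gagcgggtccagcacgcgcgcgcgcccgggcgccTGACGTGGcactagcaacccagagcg

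The element lay 65 to 47 bases upstream of the start in Hspa5, 105 to 87 in Dnajc3, 145 to 127 in Canx and 156 to 138 in Derl3, where it is on the opposite strand. It lay 52 to 42 bases upstream in Herpud1, 30 to 23 in Kdelr3 (opposite strand) and 26 to 19 in Sec24d. These positions count from the RefSeq start. The GENCODE annotation, used here for gene coordinates, starts Hspa5 at 34771970 and Sec24d at 123267455. By those starts the elements of Hspa5 and Sec24d lie inside the gene. ERSE was found in 10 of the 34 matched members (29.4%): Calr, Canx, Creld2, Derl3, Dnajc3, Ero1lb, Hsp90b1, Hspa5, Pdia6 and Syvn1. Of all 27025 genes in the promoter table, 0.137% held it in at least 1 promoter. ERSE-II was found in Dnajb11 and Herpud1 (0.0444% of all genes) and the UPRE core in Kdelr3, Sec23a and Sec24d (0.714% of all genes). The members were picked as genes of this response and pathway, so their larger shares cannot be read apart from that choice. These matches describe letters in a window and do not show that a factor binds there.

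Each mouse line had 2661691 to 3483069 counts in genes and each rat line 1047535 to 1242937. All 40 members passed the filter on low counts in mouse. Levels are CPM, counts scaled to the size of the library (in mouse after TMM scaling), and are listed in the order pXEN2, pXEN4, pXEN6, XEN1, XEN2, XEN5, ES2, ES3. The sum of 7 endoderm markers ran from 1257 to 1516 CPM among the pXEN lines and from 1078 to 1690 among the XEN lines, and was 5.35 and 6.24 in the ES lines. The 6 pluripotency markers summed to 3379 and 3383 CPM in ES, 27.6 to 61.2 in pXEN, where 3 of the 6 had no count in any line, and 0.278 to 0.528 in XEN. The sum of 13 fibroblast markers ran from 25.6 to 61.9 CPM among the pXEN lines and from 188 to 275 among the XEN lines, and was 7.81 and 6.63 in the ES lines. Of these 13, 9 had no count in any pXEN line, 7 had none in ES, and each had counts in XEN, with Col1a1 at 92 to 164 counts and Col1a2 at 88 to 185 counts per XEN line.

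The 40 genes were mostly higher in endoderm lines than in ES lines. Summed over the members, the level was 9382, 10582 and 11370 CPM in pXEN2, pXEN4 and pXEN6, 9725, 9665 and 9382 in XEN1, XEN2 and XEN5, and 3232 and 3400 in ES2 and ES3. The pXEN and XEN lines overlapped in this sum, and both groups lay above ES, at 3.15 and 2.89 times its mean. In the test across 10895 genes (edgeR quasi-likelihood, Benjamini-Hochberg adjusted p under 0.05), 29 of the 40 were higher in pXEN than in ES and 0 were lower, where 18.2% of all genes tested were higher and 17.8% lower. In XEN, 32 of the 40 were higher than in ES and 0 lower, where 20.7% of all genes tested were higher and 17.8% lower. Under DESeq2, 0 members were lower in either comparison too. At an unadjusted p under 0.05 in edgeR 30 and 35 members differed from ES, each of them higher. Of all 10895 genes tested, 4963 and 5211 differed at that level, in either direction. The endoderm lines were all above both ES lines for 34 members in pXEN and 35 in XEN, as they were for 30.2% and 31.6% of all genes tested. The median log2 fold change over the 40 was 1.41 in pXEN and 1.50 in XEN, beside -0.03 and 0.00 over all genes tested. The same 2 ES lines serve in both comparisons, so they are not independent of each other. Leaving out ES2 or ES3 leaves 1 ES line, whose spread is then assumed to be that of the other groups. The count in XEN was 24 without ES2 and 26 without ES3, and the count in pXEN stayed between 25 and 29 whichever mouse line was left out.

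**Figure D1:**
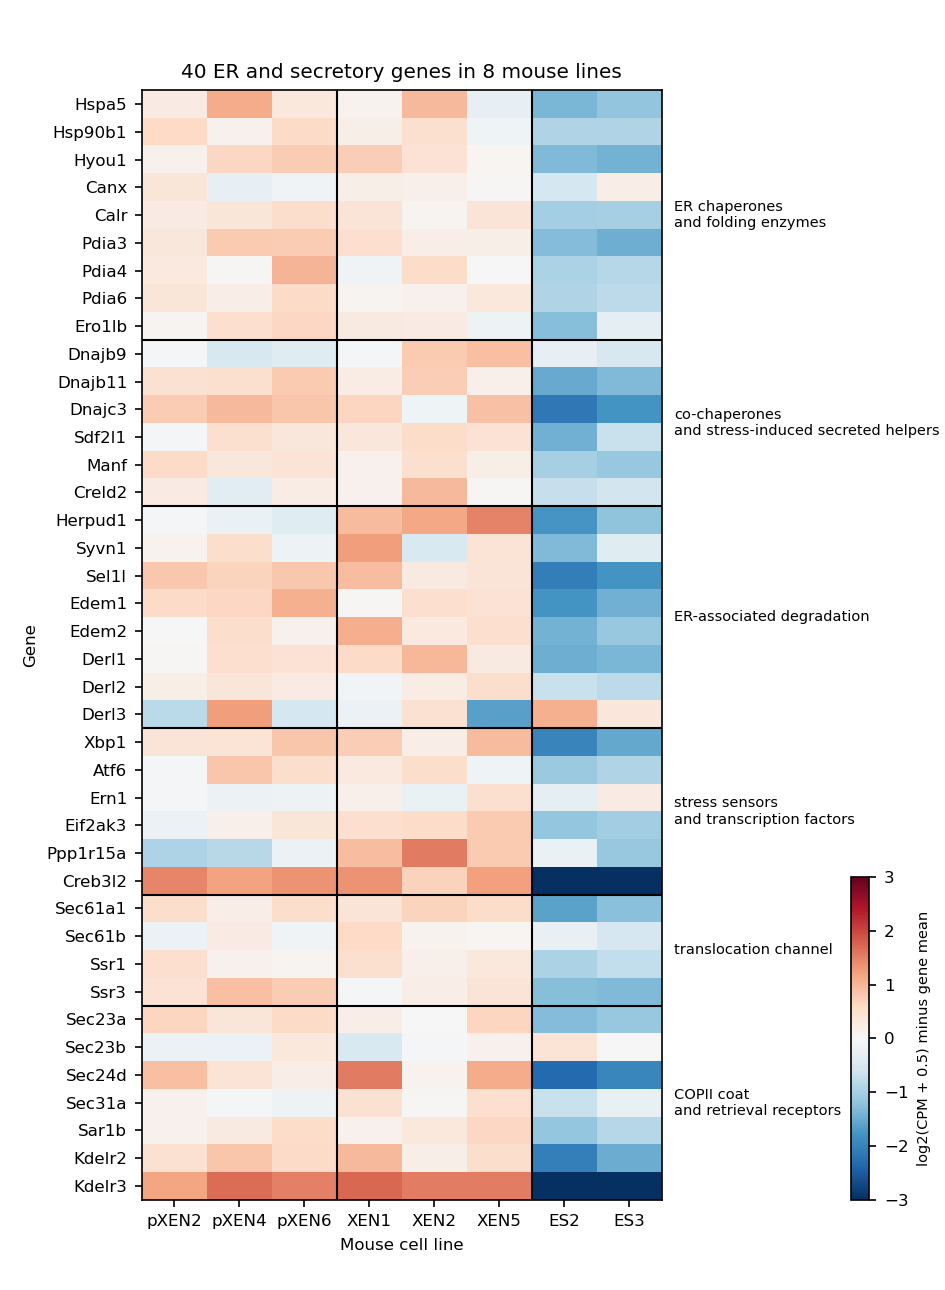
Level of the 40 genes (rows, grouped by role) in the 8 mouse lines (columns), as log2(CPM + 0.5) minus the gene's mean over the lines, with colours capped at 3 in either direction. The ES columns are blue for most genes, deepest for Creb3l2 and Kdelr3, while Herpud1 and Ppp1r15a are red in the XEN columns only.

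Of the 9 ER chaperones and folding enzymes, 7 were higher than in ES in each endoderm group, and Canx and Ero1lb did not pass the test (Ero1lb passed in pXEN without ES3, adjusted p = 0.0453). Hspa5 encodes BiP, the main heat-shock-type chaperone of the ER (chromosome 2, 34771970 to 34777547, plus strand, GRCm38). It stood at 388, 708, 406, 352, 642, 275, 125 and 142 CPM in the line order above. The lowest endoderm line, XEN5, was still above both ES lines, although the level varied more than 2-fold within XEN. In pXEN the level was 3.75-fold that of ES (log2 1.91, SE 0.40, adjusted p = 0.00407), and in XEN 3.16-fold (adjusted p = 0.00792). The XEN call was lost without ES2 (adjusted p = 0.0745) and without ES3 (0.0529). Its partner Hyou1, a nucleotide exchange factor for BiP, stood at 661, 929, 1021, 1003, 817, 634, 240 and 227 CPM and was 3.73-fold and 3.50-fold higher (adjusted p = 0.000324 and 0.000467). Hsp90b1, the ER paralog of the cytosolic HSP90 proteins, stood at 435, 315, 432, 326, 403, 263, 155 and 155 CPM, which is 2.54-fold higher in pXEN and 2.14-fold higher in XEN than in ES (adjusted p = 0.0018 and 0.00553).

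The lectin chaperone genes gave different calls. Calr, which encodes the soluble lectin calreticulin, stood at 1072, 1175, 1321, 1196, 967, 1188, 450 and 459 CPM. It was 2.62-fold higher in pXEN and 2.46-fold higher in XEN, with little spread within any group. Canx, which encodes its membrane-bound relative calnexin, stood at 124, 82.0, 90.1, 109, 108, 99.6, 67.0 and 111 CPM. The endoderm lines lay on both sides of ES3, and the log2 fold changes were 0.15 ± 0.27 and 0.25 ± 0.27 (adjusted p = 0.702 and 0.502). The disulfide isomerase Pdia3, which works with both lectins, was 4.10-fold higher in pXEN and 3.22-fold higher in XEN (adjusted p = 7.23e-05 and 0.000246). Pdia6 stood at 1078, 953, 1247, 883, 911, 1048, 450 and 488 CPM, and Pdia4 at 411, 342, 681, 312, 485, 335, 171 and 184 CPM. For these isomerases too each endoderm line was above both ES lines, and the fold changes were 2.33 and 2.02 for Pdia6 and 2.69 and 2.13 for Pdia4. The Pdia4 call in XEN was lost without either ES line (adjusted p = 0.109 without ES2 and 0.0787 without ES3). Per kb of exon, the highest chaperone levels in pXEN were those of Calr (544 CPM per kb), Pdia6 (502) and Pdia3 (391), and the lowest was that of the oxidase gene Ero1lb (1.61).

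Among the 6 co-chaperones and small stress-induced helpers, 4 were higher than in ES in pXEN and 6 in XEN. Dnajc3 encodes P58IPK, a BiP co-chaperone that also inhibits the kinase encoded by Eif2ak3, and it had the largest fold change of the 6. It stood at 111, 128, 116, 102, 59.5, 120, 14.4 and 18.3 CPM, 7.20-fold higher in pXEN and 5.71-fold higher in XEN than in ES (adjusted p = 9.72e-05 and 0.000223). Dnajb11, another BiP co-chaperone, was 4.03-fold and 3.56-fold higher, and Manf, a secreted helper of BiP, 2.88-fold and 2.54-fold. Sdf2l1, a component of a BiP complex, stood at 14.8, 21.4, 19.5, 19.5, 22.5, 20.9, 5.35 and 9.35 CPM and was 2.51-fold and 2.84-fold higher (adjusted p = 0.0125 and 0.00659). Both Sdf2l1 calls were lost without ES2 (adjusted p = 0.119 in pXEN and 0.0741 in XEN). Dnajb9 and Creld2, both well-known targets of the unfolded protein response, passed the test against ES in XEN and not in pXEN, while pXEN and XEN did not differ past the threshold (adjusted p = 0.125 and 0.654). Dnajb9 stood at 27.3, 19.9, 21.5, 26.9, 48.4, 52.3, 23.4 and 19.9 CPM, so that the pXEN lines lay around the ES lines. Its log2 fold change was 0.08 ± 0.33 in pXEN (adjusted p = 0.873) and 0.98 ± 0.33 in XEN (adjusted p = 0.0367). Creld2 stood at 29.0, 19.4, 28.4, 26.5, 48.1, 24.8, 14.8 and 16.4 CPM, with log2 fold changes of 0.71 ± 0.36 and 1.09 ± 0.36 (adjusted p = 0.148 and 0.0341). Both XEN calls were lost under upper-quartile scaling (adjusted p = 0.0577 for Dnajb9 and 0.0518 for Creld2) and without XEN2, ES2 or ES3 (adjusted p = 0.0805 to 0.177). The Dnajb9 call was also lost without XEN5 (0.112), and the Creld2 call with sex as a covariate (0.0508).

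Of the 8 genes of ER-associated degradation, 6 were higher than in ES in each endoderm group. Sel1l encodes the scaffold of the main retrotranslocation complex and stood at 204, 186, 206, 222, 141, 152, 27.6 and 33.1 CPM. It was 6.54-fold higher in pXEN and 5.64-fold higher in XEN (adjusted p = 3.72e-05 and 7.39e-05). The gene of its ligase partner, Syvn1 (HRD1), stood at 18.8, 25.1, 15.5, 42.1, 12.5, 23.3, 6.58 and 13.2 CPM and passed in neither comparison (adjusted p = 0.16 and 0.0577). In XEN it passed without XEN2 (0.0129), with sex as a covariate (0.0235) and with no low-count filter (0.0326). Of the stranded reads at Syvn1, 15.4% lay on the opposite strand, against at most 5.81% for any other member. Edem1 and Edem2, whose products hand mannose-trimmed glycoproteins to degradation, were 5.29-fold and 2.91-fold higher in pXEN and 3.90-fold and 3.92-fold higher in XEN. Edem1 stood at 139, 145, 198, 95.9, 133, 126, 26.7 and 33.9 CPM. The derlin genes gave different results: Derl1 was 3.41-fold and 4.22-fold higher, Derl2 2.00-fold and 1.98-fold higher, and Derl3 stood at 1.32, 7.12, 1.72, 2.34, 3.89, 0.528, 6.17 and 3.51 CPM with overlapping groups. The Derl2 calls were lost without either ES line (adjusted p = 0.0512 to 0.0809). Herpud1, whose product helps assemble the complex around Syvn1, was 2.41-fold higher in pXEN and 6.53-fold higher in XEN (adjusted p = 0.00438 and 5.84e-05, the first 0.0598 without ES2).

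Of the 6 sensor and transcription factor genes, 4 were higher than in ES in pXEN and 5 in XEN. Xbp1, the transcription factor gene that IRE1 splices, stood at 239, 243, 322, 302, 208, 354, 45.6 and 62.4 CPM. Each endoderm line was more than 3-fold above both ES lines, and the fold was 4.96 in pXEN and 5.33 in XEN (adjusted p = 0.000187 and 0.000162). Ern1, which encodes IRE1 itself, stood at 4.94, 4.56, 4.59, 5.85, 4.45, 7.40, 4.11 and 6.24 CPM, with log2 fold changes of -0.14 ± 0.47 and 0.19 ± 0.46 (adjusted p = 0.839 and 0.774). Atf6, a sensor that becomes a transcription factor on cleavage, stood at 106, 194, 157, 134, 156, 99.6, 49.8 and 57.7 CPM, 2.83-fold and 2.42-fold higher than in ES (adjusted p = 0.00296 and 0.00712, the second 0.0671 without ES2). Eif2ak3, which encodes the translation-restraining kinase PERK, stood at 39.5, 49.5, 57.1, 63.5, 64.8, 76.4, 19.7 and 21.4 CPM. It was 2.36-fold higher in pXEN and 3.31-fold higher in XEN (adjusted p = 0.00346 and 0.000558). Ppp1r15a, the stress-induced phosphatase subunit GADD34 that reverses the action of PERK, had a log2 fold change of 0.00 ± 0.37 between pXEN and ES (adjusted p = 1). In XEN it was 3.37-fold higher than in ES (adjusted p = 0.0043, and 0.0511 without ES3).

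Creb3l2 encodes an ER-anchored transcription factor of the CREB3 family, known for raising COPII genes in secretory cells (chromosome 6, 37327255 to 37442146, minus strand, GRCm38). It stood at 42.5, 35.6, 39.0, 39.0, 24.5, 36.2, 0.411 and 1.17 CPM, and the ES values rest on 1 count in ES2 and 3 in ES3. It was 46.5-fold higher in pXEN and 39.6-fold higher in XEN (adjusted p = 1.33e-05 and 1.85e-05). With any mouse line left out, its log2 fold change lay between 5.02 and 6.45 in pXEN and between 4.79 and 6.20 in XEN.

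Of the 4 genes at the translocation channel, 3 were higher than in ES in each endoderm group. Sec61a1, the gene of the channel-forming subunit, stood at 695, 548, 688, 632, 762, 699, 157 and 202 CPM, 3.58-fold and 3.88-fold higher (adjusted p = 0.000125 and 0.0001). Sec61b, the gene of a small tail-anchored subunit, stood at 77.3, 102, 80.1, 131, 92.9, 90.4, 74.8 and 61.2 CPM. Each endoderm line was above both ES lines, but the log2 fold changes of 0.35 ± 0.25 and 0.62 ± 0.26 did not pass (adjusted p = 0.31 and 0.0756). Ssr3, which encodes the gamma subunit of the translocon-associated TRAP complex, stood at 869, 1205, 1094, 615, 740, 844, 264 and 256 CPM and was 4.06-fold and 2.82-fold higher (adjusted p = 8.24e-05 and 0.000556). Ssr1, the gene of the alpha subunit, was 2.15-fold and 2.25-fold higher (adjusted p = 0.00764 and 0.00569), and both calls were lost without ES2 (0.0708 and 0.057).

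Of the 7 COPII and retrieval genes, 5 were higher than in ES in each endoderm group, and Sec23b and Sec31a did not pass. Sec31a passed in XEN without XEN2 (adjusted p = 0.0355), with the ribosomal precursor Rn45s removed (0.0498) and with unstranded counts (0.0487). Kdelr3, one of the receptors that return KDEL-tagged chaperones from the Golgi (chromosome 15, 79516411 to 79527739, plus strand, GRCm38), stood at 291, 407, 367, 421, 372, 370, 6.17 and 3.90 CPM. The difference from ES was the largest among the 40 members, 70.2-fold in pXEN and 76.7-fold in XEN (adjusted p = 1.65e-06 and 1.39e-06). Kdelr2 stood at 347, 450, 377, 494, 287, 366, 60.9 and 90.4 CPM, 5.17-fold and 5.05-fold higher (adjusted p = 0.000153 and 0.000188). Sec23a, a subunit gene of the inner coat, stood at 223, 184, 213, 163, 144, 223, 58.0 and 65.1 CPM, 3.36-fold and 2.87-fold higher (adjusted p = 0.00041 and 0.000952). Sec24d, which encodes a cargo-selecting partner of SEC23, stood at 30.9, 21.9, 18.9, 49.1, 17.8, 36.2, 2.88 and 3.90 CPM, 6.96-fold and 9.97-fold higher (adjusted p = 0.00157 and 0.000618). The gene of the GTPase that starts coat assembly, Sar1b, was 2.54-fold and 2.61-fold higher.

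**Figure D2:**
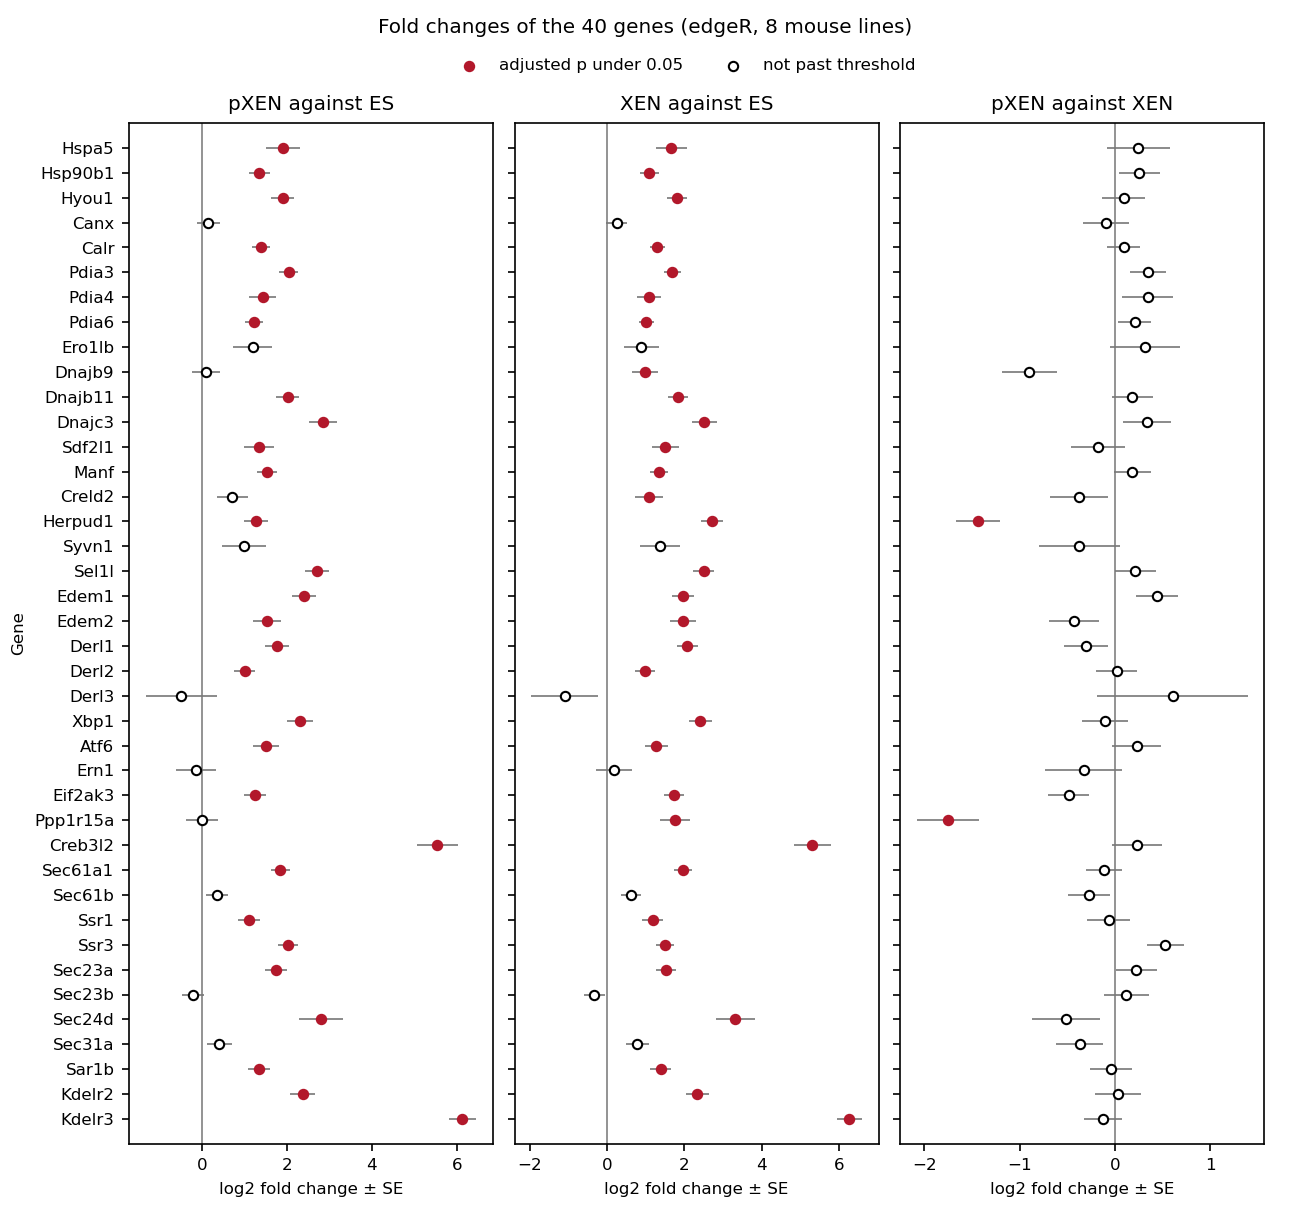
Log2 fold change with its standard error (bars) for the 40 genes in pXEN against ES, XEN against ES and pXEN against XEN, where filled points passed an adjusted p of 0.05. Filled points lie to the right of 0 in the first 2 panels (29 and 32 of 40), and in the third only Herpud1 and Ppp1r15a are filled, to the left of 0.

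Shares within 10 families of paralogs were computed from CPM per kb of exon. Of the 15 members in these families, 8 had a larger share in each endoderm line than in both ES lines and 4 a smaller one, while the shares of Sec31a, Sar1b and Edem2 overlapped. Over all 27 genes of the families the numbers were 8 larger, 10 smaller and 9 overlapping, and the shares of a family sum to the whole, so they do not move independently. Kdelr3 made up 3.42% and 6.87% of the summed level of the 3 KDEL receptor genes in the ES lines, 40.8% to 44.4% in the pXEN lines and 42.3% to 52.7% in the XEN lines. Kdelr1 was higher as well, by 4.54-fold in pXEN and 3.73-fold in XEN. Sec23a made up 21.9% and 29.9% of the Sec23 level in ES, 52.5% to 61.9% in pXEN and 49.2% to 59.2% in XEN. Its paralog Sec23b stood at 37.8 ± 7.88 CPM per kb in pXEN, 34.8 ± 6.85 in XEN (SD, n = 3 each) and 43.7 ± 9.29 in ES (n = 2). Sec24d made up 3.03% and 3.77% of the Sec24 level in ES, between 8.56% and 11.4% in pXEN and between 8.51% and 15.0% in XEN, while Sec24c held most of that level in each group and its share overlapped. Atf6 made up 22.2% and 25.7% of the summed Atf6 and Atf6b level in ES, 38.8% to 43.4% in pXEN and 35.7% to 48.4% in XEN. Shares were not tested, and reads that map to more than 1 place are not in these counts.

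**Figure D3:**
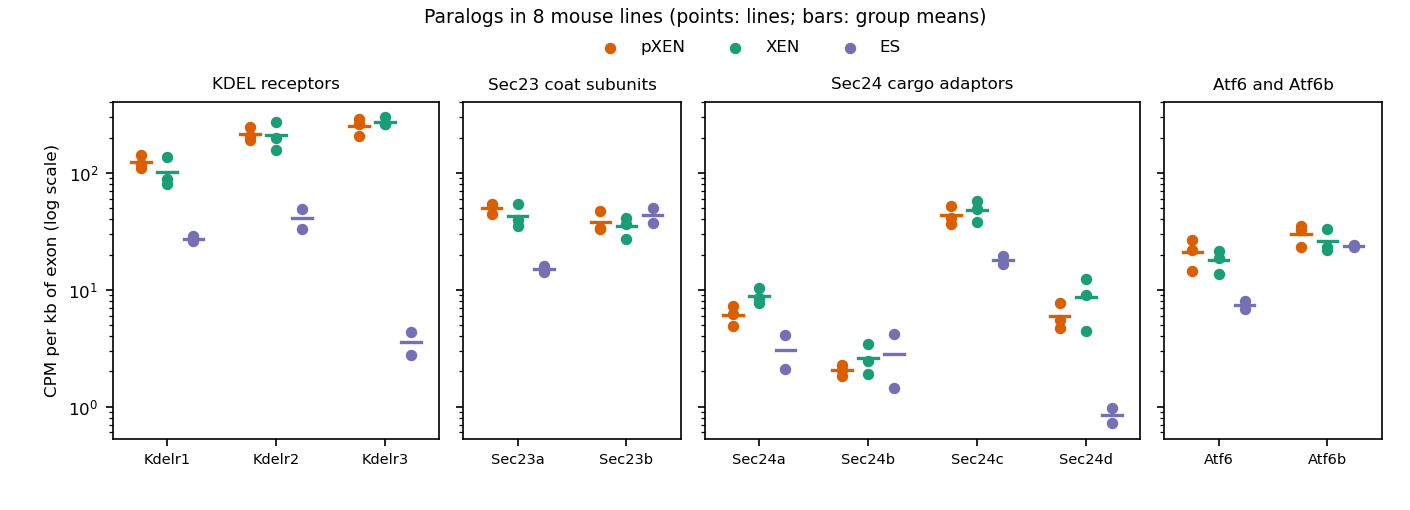
Level of paralogous genes as CPM per kb of exon on a log axis, with a point for each mouse line and a bar for each group mean. Kdelr3 rises from 3.57 CPM per kb in ES to 252 in pXEN and 275 in XEN, and Sec23a rises while Sec23b overlaps between the groups.

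The pXEN and XEN lines differed in few of the 40 genes, as they did in few of all genes tested. By the edgeR test 0 members were higher in pXEN and 2, Herpud1 and Ppp1r15a, were lower, where 0.918% of all genes tested were higher and 3.63% lower. DESeq2 also called 0 higher and 2 lower. At an unadjusted p under 0.05 edgeR had 5 of the 40 members, beside 1652 of all 10895 genes tested. Of these 5 members, Ssr3 was the 1 higher in pXEN. The median log2 fold change was 0.02 over the 40 and 0 over all genes tested. The 38 members that did not pass had log2 fold changes between -0.90 and 0.60, with standard errors of 0.17 to 0.79 (median 0.23), so moderate differences in these genes are not shown to be absent.

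Herpud1 (chromosome 8, 94386438 to 94395377, plus strand, GRCm38) stood at 54.6, 49.5 and 44.2 CPM in the pXEN lines, 111, 129 and 162 in the XEN lines and 16.5 and 24.6 in the ES lines. The 3 groups did not overlap. It was 2.72-fold lower in pXEN than in XEN (log2 fold change -1.44 ± 0.23 SE, adjusted p = 0.00499), and passed the threshold in each alternative run, with an adjusted p of at most 0.0226. Ppp1r15a (chromosome 7, 45522916 to 45526268, minus strand, GRCm38) stood at 23.4, 24.8 and 39.3 CPM in pXEN, 85.3, 133 and 76.9 in XEN, and 38.7 and 19.9 in ES. The XEN lines were above the lines of both other groups. It was 3.37-fold lower in pXEN than in XEN (log2 fold change -1.75 ± 0.33, adjusted p = 0.01), a call that was lost without pXEN2 (adjusted p = 0.0556). Dnajb9 was 1.86-fold lower in pXEN without passing (adjusted p = 0.125), and passed without XEN1 (adjusted p = 0.0336).

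Of the 33 tested genes of a wider stress response and degradation list, outside the 40, edgeR called 2 lower and 0 higher in the pXEN lines than in the XEN lines, where 3.63% of all genes were lower. At an unadjusted p under 0.05, 7 of the 33 differed, beside 1652 of all 10895 genes tested. The median log2 fold change of the list was -0.08. Among the lower genes, Atf3, a transcription factor gene of the integrated stress response, stood at 11.2, 1.99 and 8.04 CPM in pXEN, 180, 137 and 95.6 in XEN, and 2.47 and 4.68 in ES. It was 19.5-fold lower in pXEN than in XEN (adjusted p = 0.00133) and 37.9-fold higher in XEN than in ES (adjusted p = 0.00029). Ddit3, the gene of the stress-induced factor CHOP, and Atf4, its upstream activator, are 2 genes of that list chosen after their values were seen. Ddit3 stood at 6.25, 7.69 and 10.6 CPM in pXEN, 12.5, 24.2 and 13.2 in XEN, and 2.88 and 3.12 in ES. It was 5.50-fold higher in XEN than in ES (edgeR adjusted p = 0.00253). In pXEN it was 2.71-fold higher than in ES (edgeR adjusted p = 0.0382), a call that was lost in 8 of 16 alternatives. Against XEN, Ddit3 and Atf4 did not pass in pXEN (adjusted p = 0.185 and 0.106), while DESeq2 called Atf4 lower (0.0493). Other genes of the list were no higher in XEN than in ES, such as Trib3, at a mean of 12.0 CPM in XEN and 14.2 in ES, and Nfe2l2, the gene of the oxidative stress factor NRF2, at 31.2 and 46.7 (adjusted p = 0.773 and 0.149). Both were also chosen after their values were seen. The XEN lines were also the ones in which the 13 fibroblast markers were high: 188, 191 and 275 CPM in XEN1, XEN2 and XEN5 against 61.9, 25.6 and 54.8 in pXEN2, pXEN4 and pXEN6. In pXEN most of that sum was Fbln2, at 78 to 178 counts per line. The part of fibroblast RNA in the levels of Herpud1, Ppp1r15a, Atf3 and Ddit3 was not tested. Nor was it tested for the other XEN levels, such as those of Dnajb9 and Creld2.

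**Figure D4:**
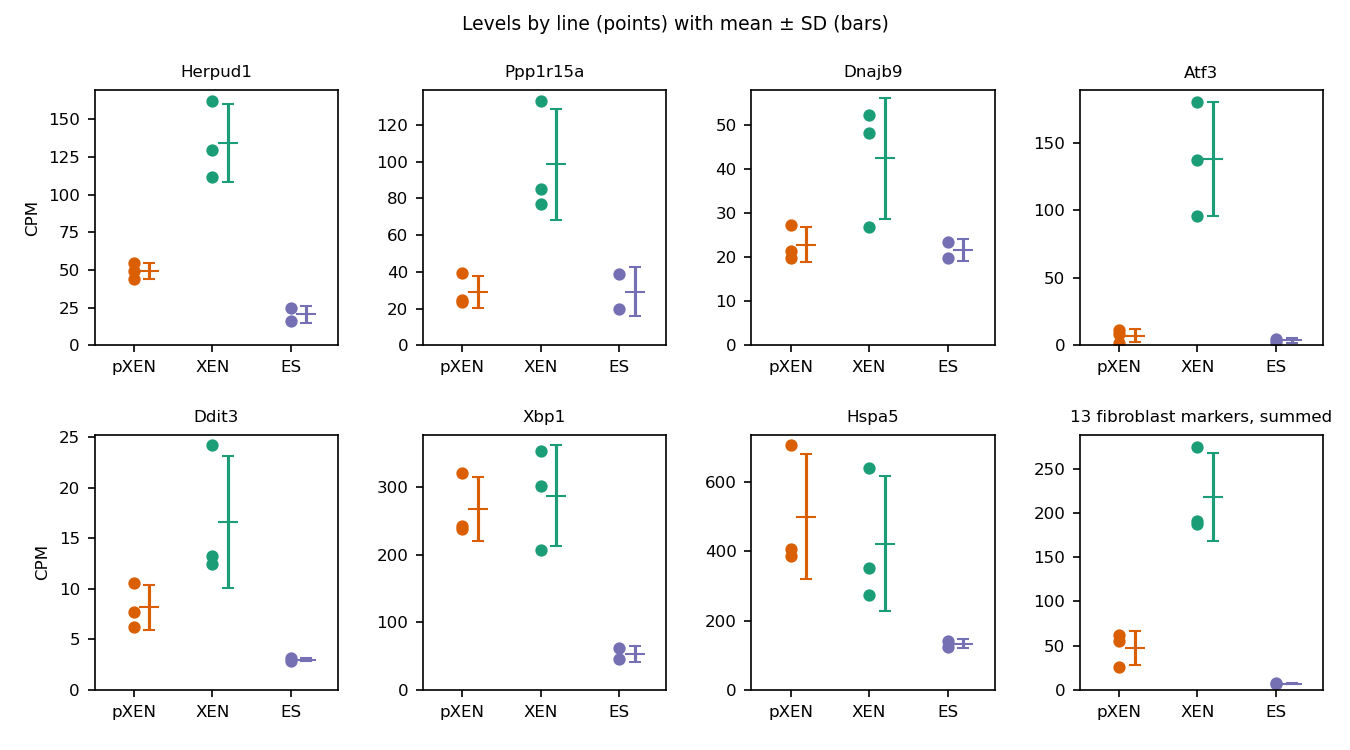
CPM in each mouse line (points) with mean ± SD (bars) for 7 stress and chaperone genes and for the sum of 13 fibroblast markers, each panel on its own linear axis from 0. Herpud1, Ppp1r15a, Atf3, Ddit3 and the marker sum are highest in the 3 XEN lines, while pXEN and XEN lines overlap for Dnajb9, Xbp1 and Hspa5.

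A wider set of ER and secretory genes, in 4 lists of 133 genes without the 40 members, was counted in the same way, and 127 of them were tested. Against ES, 83 of the 127 were higher and 1 lower in pXEN, and 81 were higher and 0 lower in XEN by edgeR. Of all genes tested, 18.2% were higher and 17.8% lower in pXEN, and 20.7% and 17.8% in XEN. At an unadjusted p under 0.05, 95 of the 127 differed in pXEN and 88 in XEN, beside 4963 and 5211 of all 10895 genes tested. Between pXEN and XEN, 1 was higher in pXEN and 2 lower, beside 0.918% and 3.63% of all genes tested. The median log2 fold change was 1.24 in pXEN, 1.28 in XEN and -0.04 between them. By list, the numbers above ES in pXEN and XEN were 29 and 29 of 38 for folding and glycan quality control, 17 and 18 of 33 for stress response and degradation, 10 and 9 of 21 for translocation and signal peptides, and 27 and 25 of 35 for COPII, cargo receptors and retrieval. Without ES2 the stress list fell to 9 of its genes higher in pXEN, and the translocation list to 4 in pXEN and 3 in XEN. The 1 gene lower in pXEN than in ES was Trib3, a stress-induced pseudokinase, with an adjusted p of 0.0489 that was lost in 7 alternatives (up to 0.471).

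Serpinh1, which encodes the collagen chaperone HSP47, had the largest fold change in these lists. It stood at 738, 1022, 1111, 1550, 768, 744, 2.88 and 8.18 CPM, 170.7-fold higher in pXEN and 181.9-fold higher in XEN than in ES. Creb3, a relative of Creb3l2, was 11.7-fold and 20.3-fold higher, the cargo receptor Tmed3 9.97-fold and 9.81-fold, and the cargo receptor Surf4 5.88-fold and 5.62-fold. Fkbp10, a prolyl isomerase gene of collagen folding, was the only gene of the 4 lists that was higher in pXEN than in XEN by this test. It stood at 120, 105 and 304 CPM in pXEN, 16.4, 14.7 and 22.5 in XEN and 12.3 and 9.74 in ES, 9.83-fold higher than in XEN (adjusted p = 0.00164) and 15.9-fold higher than in ES (adjusted p = 0.000285). The genes lower in pXEN than in XEN were Atf3, given above, and Creb3l1, another relative of Creb3l2, chosen after its values were seen, at 1, 3 and 0 counts in pXEN and 6, 23 and 31 in XEN (13.2-fold, adjusted p = 0.037, lost without pXEN2, without pXEN6 and with sex as a covariate). The part of the fibroblast RNA in the Creb3l1 level of XEN was not tested.

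Chaperone genes outside the ER were counted for comparison. Of 12 heat shock genes of the cytosol and mitochondria that were tested, edgeR put 0 above and 5 below ES in pXEN, and 0 above and 6 below ES in XEN. Of all genes tested, 18.2% stood above and 17.8% below ES in pXEN, and 20.7% and 17.8% in XEN. The unadjusted p was under 0.05 for 6 of the 12 in pXEN and 9 in XEN, beside 4963 and 5211 of all 10895 genes tested. The median log2 fold change of the 12 was -0.71 and -0.89. In pXEN the count below ES was 3 without ES2, 2 without ES3 and 3 with no low-count filter, and in XEN it was 3 without ES2. Hsp90aa1, the cytosolic counterpart of Hsp90b1, stood at 948, 391, 773, 255, 608, 636, 2007 and 1759 CPM, 2.67-fold lower in pXEN and 3.76-fold lower in XEN (adjusted p = 0.0285 and 0.00753), and both calls were lost without ES2 (adjusted p = 0.136 and 0.0508). The pXEN call was also lost without ES3 (0.0841), without pXEN6 (0.0575) and with no low-count filter (0.0625). The small heat shock gene Hspb1 was 53.8-fold and 31.5-fold lower. Of 10 basement membrane genes, which are cargo of this pathway, 8 stood above ES and Fn1 below it in pXEN, and 9 stood above ES in XEN, with Lamb1 211-fold and 192-fold higher.

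The fold changes can be set beside the promoter elements shown above. Of the 10 members with ERSE, 5 were higher than in ES in pXEN and 6 in XEN, with median log2 fold changes of 1.20 and 1.09. Of the 24 matched members without it, 18 and 20 were higher, with medians of 1.39 and 1.61. These 24 include the carriers of ERSE-II and of the UPRE core. Of the 15 members with any of the 3 elements, 10 and 11 were higher (medians 1.35 and 1.37). Of the 19 matched members with none of them, 13 and 15 were higher (medians 1.33 and 1.50). The 6 unmatched members were all higher in both groups. The ERSE members that did not pass were Canx, Creld2, Derl3, Ero1lb and Syvn1 in pXEN, and the same genes but Creld2 in XEN. Of all 40 members 29 and 32 were higher, beside 18.2% and 20.7% of all genes tested. All 3 members with the UPRE core (Kdelr3, Sec23a and Sec24d) and both with ERSE-II (Dnajb11 and Herpud1) were higher in each endoderm group. Such small sets cannot be told from the members at large. The sets with and without an element were not tested against each other.

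In the rat XENP lines the 39 members present were all counted in each line. Their summed level was 15107 CPM in CX1, 18421 in MAX2, 17143 in MAX3 and 18290 in MAX8, with a mean of 17240 ± 1534 (SD, n = 4). Rat and mouse CPM are not on the same scale, so genes are compared across species by the percentile of their level among 14387 symbols found in both species, without a test. Of 38 members, 35 lay within 10 percentile points of their place in pXEN, with a median difference of -0.60 points (rat minus mouse). Of all 14387 shared symbols 65.8% lay within 10 points. Near the top of the scale there is less room to differ, and 23 of the 38 members were at or above the 90th percentile in pXEN. Of these 23, 21 lay within 10 points, beside 78.2% of the 1381 shared symbols at that level. The exceptions were Sel1l (96.8 in pXEN and 68.9 in rat), Dnajc3 (93.8 and 81.2) and Creb3l2 (79.8 and 95.5). The percentile of Kdelr3 was 98.5 in pXEN, 97.8 in rat XENP and 49.2 in ES, and that of Hspa5 was 99.0, 99.9 and 95.3. Between 65.5% and 70.1% of rat reads mapped to more than 1 place and were not counted, so genes with near copies may be undercounted.

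**Figure D5:**
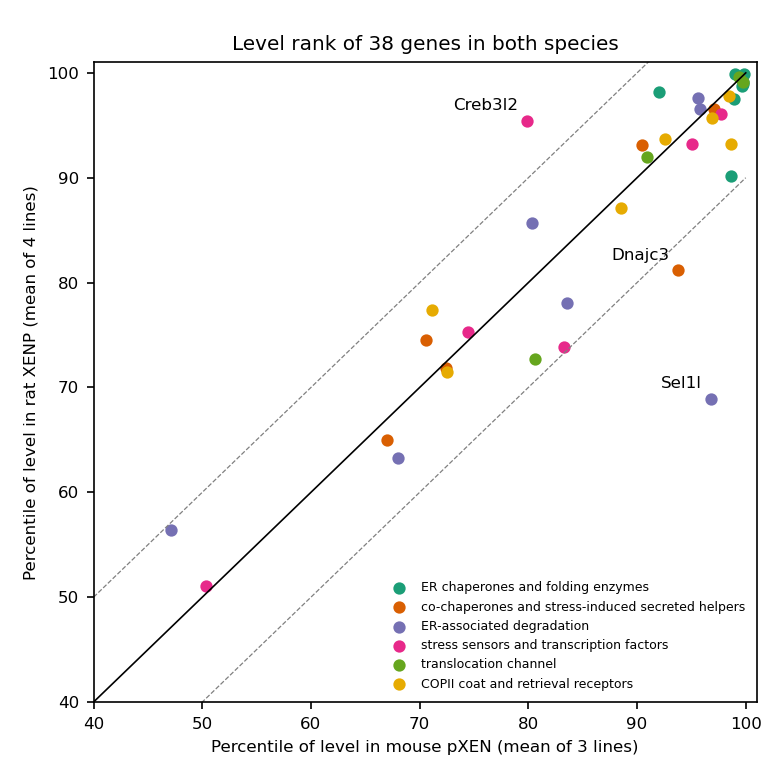
Percentile of each gene's level among 14387 shared symbols in rat XENP (mean of 4 lines) against mouse pXEN (mean of 3 lines), for 38 genes coloured by role, with the line of equality and dashed lines 10 points to either side. Sel1l and Dnajc3 lie below the band and Creb3l2 above it.

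Within the rat lines, the members were often lowest in CX1. It was the lowest of the 4 lines for 23 of the 39 members (59.0%), and for 31.8% of 7528 rat genes of at least 10 CPM. Xbp1 stood at 216, 397, 346 and 409 CPM in CX1, MAX2, MAX3 and MAX8, Atf6 at 126, 221, 292 and 274, Herpud1 at 36.2, 66.5, 83.1 and 90.2, and Edem1 at 306, 534, 601 and 629. For these 4 genes CX1 lay below each of the other lines. Hspa5, at 2767, 3265, 2481 and 2544 CPM, and Kdelr3, at 486, 481, 472 and 508, showed no such order, and Dnajb11 was highest in CX1 at 419 CPM against 345, 306 and 300. CX1 also had the highest passage number and the highest sum of the 4 pluripotency markers in the rat tables. That sum was 163 CPM against 6.25 to 8.32 in the MAX lines. All of it was Pou5f1, while Nanog, Sox2 and Esrrb had no count in any rat line. The part of passage number and of Pou5f1 in these levels was not tested. Ppp1r15a stood at 43.4, 63.8, 74.5 and 46.4 CPM.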

How the data were processed

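Ribosome-depleted, strand-specific libraries of 12 cell lines were sequenced as paired ends, per the labels' protocols. For each line the authors deposited a table of raw gene counts (whole numbers) in an unstranded, a same-strand and a reverse-strand column. The reverse-strand counts were used here, since they held 98.9% to 99.3% of stranded reads. Per the submitters' processing notes, the builds were mm10 and rn6 and the tools included CASAVA 1.8.2, Trimmomatic 0.33, STAR 2.5.1 and DESeq2. An annotation for the counts was not given in the sources used here. Rows of read classes, 73.4% to 78.3% of mouse and 89.7% to 91.8% of rat reads, were left out. The ribosomal precursor Rn45s, between 20.7% and 50.1% of the gene counts in mouse lines, stayed in.

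All 8 mouse libraries were fitted together in edgeR 4.0.16 (R 4.3.3) with TMM scaling, filterByExpr (minimum count 10) and a robust quasi-likelihood test. P-values were adjusted by the Benjamini-Hochberg method over 10895 genes, with a threshold of 0.05. SE is the absolute log2 fold change over the square root of F. Counts were simulated for these 10895 genes, with 100 genes changed by 2 and 100 by 1 on the log2 scale. For pXEN against ES the fit called 62 and 3 of each 100, with 7 false calls. For pXEN against XEN it called 70 and 9 of each 100, with 6 false calls. The real test of pXEN against ES called far more genes, 1978 up and 1936 down. The Benjamini-Hochberg cutoff depends on how many genes differ, so the simulated shares do not give the recovery in that test. Alternatives were DESeq2 1.42.0, upper-quartile and RLE scaling, no low-count filter, Rn45s removed, unstranded counts, only the groups compared, sex as a covariate and leaving out each line. Rat CPM is of all gene counts, and rat and mouse were not tested against each other. Exon lengths and gene coordinates are from GENCODE vM21 (GRCm38). Lines were independently derived, so the spread is that between lines.

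The members, gene lists and tests were chosen with earlier results of these data known. Values per line are given for fixed anchor members and for up to 5 called members per direction and comparison with the largest fold change. Of the other lists, up to 3 called genes per direction with the largest fold change and at least 10 CPM in the higher group could be named. Exceptions are stated.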

Additional observations from a re-analysis of the deposited data

Results flagged for a closer look

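Of 52 sets of 4 rat values (the 39 members and sums over gene lists), 2 had a line apart from the others by Dixon's test, where chance alone gives about 1 in 20, or 2.6. Creb3l2 was lowest in MAX8, at 220.5 CPM against 298 to 311 in the other 3 lines. The sum of the 6 stress sensor and transcription factor genes was lowest in CX1, at 753 CPM against 1020 to 1075. The mouse groups have 2 or 3 lines and were not tested in this way.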

How the results depend on the processing

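The count of members higher than in ES ranged from 25 to 29 in pXEN and from 24 to 32 in XEN with a line left out, and was 29 in pXEN and 30 to 33 in XEN under the other alternatives. The count lower than in ES stayed at 0 under each alternative run, as did the count higher in pXEN than in XEN. The count lower in pXEN than in XEN ranged from 1 to 3 with a line left out and was 1 without pXEN2. Of the fold changes of single members, 634 of 640 in pXEN against ES, 614 of 640 in XEN against ES and 637 of 639 in pXEN against XEN kept their side of the threshold. No called value changed sign. The members' summed rat level moved between 16847 and 17951 CPM when a line was left out. Counts over all genes moved by more than 1.5 times in some cases. Without ES2, 1168 genes in place of 1978 were higher in pXEN than in ES, and in XEN 1277 in place of 2251 were higher and 1197 in place of 1937 lower (1463 and 1262 without ES3). Without XEN1, 63 in place of 100 genes were higher in pXEN than in XEN, and without pXEN2, 255 in place of 396 were lower. The causes were not tested. DESeq2 moved the median log2 fold change of all genes to -0.22 in pXEN and -0.15 in XEN, and upper-quartile scaling moved it to -0.13 and -0.11. Relative to the median of all genes, that of the members was 1.44 in pXEN and 1.50 in XEN, 1.44 and 1.50 under upper-quartile scaling, and 1.62 and 1.63 under DESeq2, which tested 13211 and 12883 genes. No paired analysis was possible because the groups compared share fewer than 2 replicate numbers. With 2 ES lines and 2661691 to 3483069 gene counts per mouse line, genes at a few CPM such as Derl3 and Ern1 have wide errors.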
